A study of Mus musculus with 9 samples.

Results

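The type I interferon response genes described here are 43 genes chosen by name, with earlier results of these data known. Each was found once among the 55414 genes that the deposited tables list. They comprise the cytokine gene Ifnb1, both receptor subunits, 4 transcription factors of the pathway, 4 sensors of foreign or misplaced nucleic acid and genes induced by the response, most of which encode antiviral proteins. RNA was sequenced from wild-type C57BL/6J mice in 3 groups of 3 libraries, labelled Young, Aged and Aged_PDK4IN, the last of which is called PDK4-IN below. Aged animals were left to age naturally until 20 months, treatment was then given once every 2 weeks for 4 months, and tissue was taken after physical tests at 24 months. PDK4-IN is an inhibitor of pyruvate dehydrogenase kinase 4, a mitochondrial enzyme that restrains the entry of pyruvate into the citric acid cycle. The protocol names vehicle as its counterpart, while the labels of the Aged libraries name no agent and those of the Young libraries give no age. The sample protocol names males, whereas the methods of the study speak of both sexes for its work on ageing. Cells of the pulmonary alveolus, described as mainly fibroblasts, were cut out of frozen lung by laser capture microdissection and combined before RNA extraction. No label says which animals a library holds, so the p-values measure the spread between libraries only, which may be technical.

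Type I interferons are secreted cytokines that a cell releases after its sensors meet viral or misplaced nucleic acid. They bind a receptor made of the IFNAR1 and IFNAR2 chains, whose kinases JAK1 and TYK2 activate STAT2. With IRF9 it takes part in a complex that binds the interferon-stimulated response element (ISRE) in promoters of induced genes, whose products block viral entry, RNA copying and protein synthesis, and in lung the program is best known from respiratory virus infection.

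Library totals ran from 19456359 to 26660409 estimated counts, and levels are given as CPM, the gene's count as a share of the library's total, scaled so that all genes of a library sum to the same value. Each gene was tested across the whole table with edgeR's quasi-likelihood test and called higher or lower where its p, adjusted by the Benjamini-Hochberg method, was under 0.05. Relative to its average over all libraries, a gene's log2 level changed with log2 gene length by a slope of 0.054 to 0.0672 in Aged and in Young replicates 1 and 2, against -0.0616 in Young replicate 3 and -0.142 to -0.00591 in PDK4-IN, so these libraries stood apart in that respect. No 2 libraries of a group agreed within counting noise. The labelled cell type was checked against 14 fibroblast markers, which summed to 14459 to 16587 CPM in Young, 12380 to 12534 CPM in Aged and 13534 to 14839 CPM in PDK4-IN. Of the 12 that could be tested, 8 were lower and 2 higher in Aged than in Young. Col1a1 stood at 2235 to 3172 CPM and Vim at 2720 to 4178 CPM over the 9 libraries and both fell, while Dcn and Lum rose 2.05-fold and 1.19-fold. Tcf21 was low already in Young, at 0.32 to 0.51 CPM, and had no count in Aged. Smooth muscle and pericyte markers, 9 in number, summed to 2126 to 2277 CPM in Young, 531 to 544 CPM in Aged and 554 to 564 CPM in PDK4-IN, with 7 lower and 1 higher in Aged than in Young (Acta2 5.89-fold lower), and their part in the members' changes was not tested. Markers of the type 2 alveolar cell summed to 108 to 126, 139 to 142 and 97.0 to 116 CPM, nearly all from Abca3 (59.6 to 72.9 CPM in Young) and Etv5 (48.2 to 52.3 CPM in Young), while the surfactant genes Sftpa1 and Sftpb had no count in Young. Those of the type 1 alveolar cell summed to 784 to 806, 653 to 658 and 718 to 728 CPM, mostly from Cav1 (524 to 549 CPM in Young) and Pdpn (230 to 235 CPM in Young). Endothelial markers summed to 50.9 to 51.5, 61.8 to 63.5 and 59.4 to 60.9 CPM. The largest share was Eng, with means of 33.1, 27.4 and 34.5 CPM in Young, Aged and PDK4-IN. Vwf had means of 1.19, 9.60 and 2.71 CPM in the same order. Of the 9 endothelial markers that could be tested, 5 were higher and 1 lower in Aged than in Young. In PDK4-IN against Aged, 2 of them were higher and 4 lower, and their part in the members' changes was not tested. A list of 17 markers of monocytes and macrophages differed far more between groups, summing to 55.8 to 64.0 CPM in Young, 4662 to 4726 CPM in Aged and 156 to 175 CPM in PDK4-IN. Of these markers, 15 of the 16 that could be tested rose in Aged over Young and 15 of 16 fell in PDK4-IN below Aged, and C1qc had no count in Young. Lyz2 alone gave 2650 to 2728 CPM of the Aged sum, while Ccr2 and Cx3cr1 of the same list had Aged means of 0.25 and 0.70 CPM. In bulk RNA, fewer cells of a type and less RNA per cell cannot be told apart.

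Promoters of induced genes are shown first, because the ISRE is a letter pattern through which the pathway can act on them. RefSeq promoters (build GRCm38.p6, 250 bases before to 50 after the start) were given for 33 of the 43 members, with 41 promoters in all. The ISRE core was searched as GAAANNGAAA and on the other strand as TTTCNNTTTC, with overlapping copies counted separately. It occurred in 14 of the 33 members (42.4%), and in 3.99% of 27025 genes and 3.44% of 32851 promoters of the same length. The gamma-activated site (GAS), TTCNNNGAA, which reads the same on both strands, occurred in 11 of 33 members (33.3%) and in 9.55% of all genes. The 5 whole promoters that follow run 5′ to 3′ on the gene's strand, with the ISRE core in capitals, and are those of Isg15 and Ifit1, which hold 3 and 2 copies, those of Oas3 and Rsad2, whose levels differed most between groups, and that of Ifi35, which has no copy and did not follow most members in the comparisons.
Isg15, chr4:156200769-156201068, minus strand: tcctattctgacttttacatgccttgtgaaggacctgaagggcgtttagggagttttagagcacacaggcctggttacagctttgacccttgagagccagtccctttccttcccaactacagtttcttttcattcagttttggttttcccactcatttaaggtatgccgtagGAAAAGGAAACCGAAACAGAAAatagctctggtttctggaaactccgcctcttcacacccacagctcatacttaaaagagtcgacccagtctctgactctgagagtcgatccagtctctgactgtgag
Ifit1, chr19:34640639-34640938, plus strand: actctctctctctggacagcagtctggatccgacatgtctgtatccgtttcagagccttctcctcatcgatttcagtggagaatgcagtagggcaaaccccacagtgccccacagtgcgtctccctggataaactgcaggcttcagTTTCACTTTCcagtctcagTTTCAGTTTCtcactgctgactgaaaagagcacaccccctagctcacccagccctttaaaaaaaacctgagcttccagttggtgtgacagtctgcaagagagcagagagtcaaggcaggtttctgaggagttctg
Oas3, chr5:120777610-120777909, minus strand: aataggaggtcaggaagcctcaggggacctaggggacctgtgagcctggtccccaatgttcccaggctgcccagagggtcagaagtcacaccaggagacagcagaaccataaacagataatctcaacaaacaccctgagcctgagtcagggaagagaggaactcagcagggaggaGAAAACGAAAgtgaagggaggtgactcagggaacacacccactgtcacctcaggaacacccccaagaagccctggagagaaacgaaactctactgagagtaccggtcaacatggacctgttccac
Rsad2, chr12:26456403-26456702, minus strand: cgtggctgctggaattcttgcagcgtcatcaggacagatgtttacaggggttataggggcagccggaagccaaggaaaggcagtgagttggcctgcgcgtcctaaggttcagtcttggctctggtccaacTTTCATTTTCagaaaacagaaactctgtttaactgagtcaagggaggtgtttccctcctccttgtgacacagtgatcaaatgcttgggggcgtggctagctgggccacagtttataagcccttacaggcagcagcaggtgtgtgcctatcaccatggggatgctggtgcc
Ifi35, chr11:101448162-101448461, plus strand: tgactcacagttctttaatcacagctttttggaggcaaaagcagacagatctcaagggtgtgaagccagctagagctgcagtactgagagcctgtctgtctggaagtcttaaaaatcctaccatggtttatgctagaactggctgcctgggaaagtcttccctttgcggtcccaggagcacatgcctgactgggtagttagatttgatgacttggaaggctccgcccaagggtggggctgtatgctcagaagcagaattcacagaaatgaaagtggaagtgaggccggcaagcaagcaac
In the Isg15 promoter the copies overlap and form a run that begins 78 bases before the start. The first copy lay 104 bases before the start in Ifit1, 75 in Oas3 and 120 in Rsad2.

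Windows of 30 bases around the first copy are shown for members of other roles, again with the ISRE core in capitals. They were chosen because they hold it, so their likeness there is set by the choice, and 19 of the 33 members have no copy.
Stat2, chr10:128270270-128270299, plus strand: ccctggTTTCAGTTTCctttccctagaact
Ifih1, chr2:62646206-62646235, minus strand: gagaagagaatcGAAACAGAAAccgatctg
Eif2ak2, chr17:78882531-78882560, minus strand: cgccggGAAAACGAAAcagaagagaaccgg
Oas1a, chr5:120907522-120907551, minus strand: tctcggGAAATGGAAACTGAAAatctactt
Bst2, chr8:71537579-71537608, minus strand: ttccagGAAAATGAAACTGAAAggctgcag
Gbp2, chr3:142620598-142620627, plus strand: ttttagTTTCACTTTCactgtcttaagcat
Gbp3, chr3:142559993-142560022, plus strand: acacagTTTCAGTTTCTATTTCccagatcc
Gbp7, chr3:142530277-142530306, plus strand: gtgcagTTTCAGTTTCagttctccatcccc
The copy lay after the start in Ifih1 and Eif2ak2 and before it in the other 6 of these. These matches are descriptions of letters and were not tested as binding sites.

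Most members rose with age and most of these fell in PDK4-IN to a level that was not called different from Young or was called below it. Of the 42 members with enough counts to test, 37 were higher in Aged than in Young and 0 were lower, where 21.4% of 16124 tested genes were called higher and 19.0% lower. The median log2 fold change of the 42 was 0.85, against 0.01 over all genes tested. Of the members, 17 were called and at least 2-fold higher, against 1504 of all 16124 genes tested. The 5 members that were tested but not called were Ifit3, Irf1, Ifi35, Ifi27 and Isg20. Summed over the 43 members, the level was 1217 to 1272 CPM in Young and 1910 to 1951 CPM in Aged, so that the groups did not overlap. The macrophage markers given above moved with this rise, and their part in it was not tested.

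In PDK4-IN against Aged, 39 of the 42 members were lower and 2 were higher, where 25.7% of 16275 tested genes were called lower and 23.9% higher. Their median log2 fold change was -0.99 and that of all genes tested -0.0009. Of the members, 21 were called and at least 2-fold lower, against 1228 of all 16275 genes tested. The summed level was 1168 to 1191 CPM in PDK4-IN. All 37 members called higher with age had their highest PDK4-IN library below their lowest Aged library. These members were picked for their high Aged libraries, which favours such a gap, and the share of all genes with one was not counted. Both comparisons also use the same Aged libraries, so one is not independent of the other. The fall of the macrophage markers ran alongside, and its part was not tested here either.

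**Figure D1:**
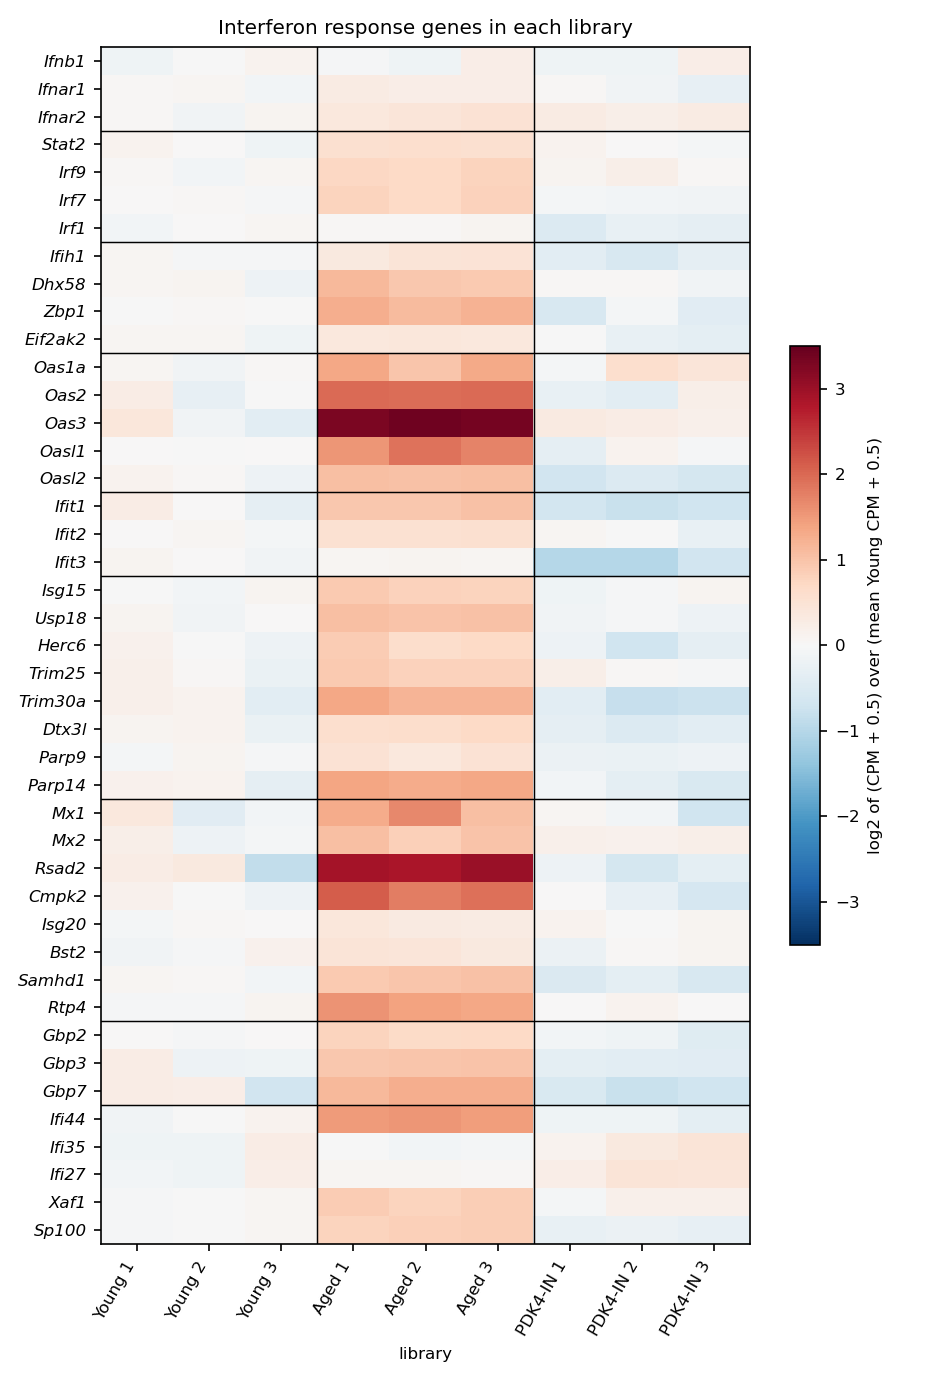
Level of each of the 43 members (rows, grouped by role between horizontal lines) in each of the 9 libraries (columns), as log2 of the CPM plus 0.5 over the mean Young CPM plus 0.5. Red marks a level above and blue a level below the Young mean, and the Aged columns are red in nearly every row, most of all for Oas3 and Rsad2, while Ifit3, Irf1, Ifi35 and Ifi27 stay pale in Aged.

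PDK4-IN against Young uses the Young and PDK4-IN libraries of the comparisons above and was tested with all 9 libraries in the fit. Here 14 of 42 members were lower and 2 higher, where 15.7% of 16553 tested genes were called lower and 13.3% higher, and 26 members were not called. The median log2 fold change of the members was -0.19, against 0.02 over all genes, and none differed by 2-fold or more. Of all 16553 genes tested, 555 were called and at least 2-fold higher and 330 called and at least 2-fold lower. The macrophage markers summed to 55.8 to 64.0 CPM in Young and 156 to 175 CPM in PDK4-IN, and 12 of the 16 tested were higher in PDK4-IN, the opposite direction to most called members. When only the 6 libraries of these groups entered the fit, 8 members were lower and 0 higher. Of all genes, 3255 of 15541 were then called in either direction, against 4796 of 16553 with all 9 libraries. With the gene-length trend described above removed, 18 members were lower and 2 higher: Isg15, Usp18, Bst2, Zbp1, Eif2ak2 and Gbp2 gained the call (adjusted p from 0.00243 to 0.0456), and Parp14 and Herc6 lost it (adjusted p = 0.064 and 0.062). That fit called 5188 of 16553 genes in either direction.

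**Figure D2:**
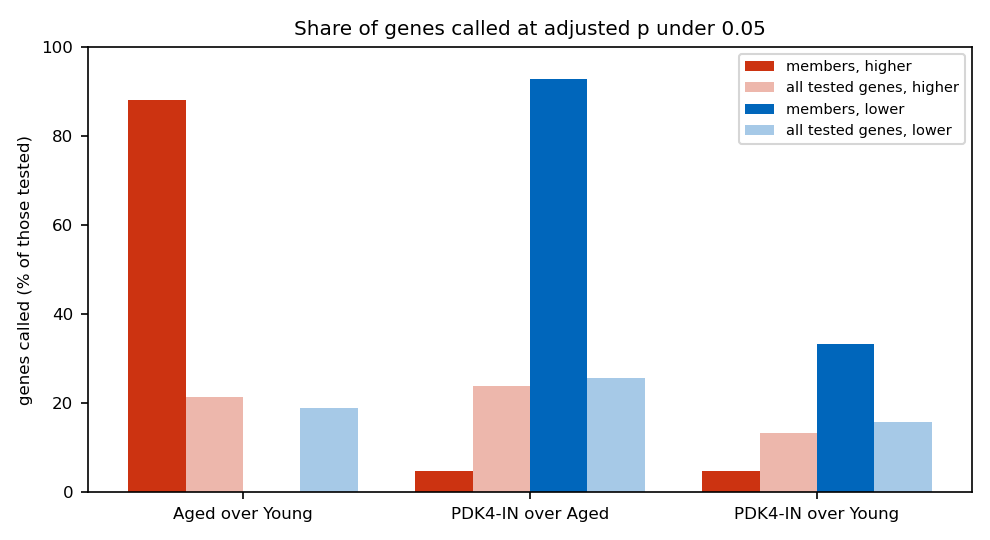
Share of the 42 tested members and of all tested genes called higher (red) or lower (blue) in each comparison, in % of the genes tested. The members were chosen with earlier results of these data known. The bar of members stands far above that of all genes for Aged over Young, higher (37 of 42 against 21.4%), and for PDK4-IN over Aged, lower (39 of 42 against 25.7%), and less far for PDK4-IN over Young, lower (14 of 42 against 15.7%).

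Ifnb1, which encodes interferon beta, had 0 to 3 counts in every library, at or under the floor of 3 counts, so no fold change was computed. None of the 17 other type I interferon genes passed the low-count filter. Differences in the transcripts of these cytokines were not detectable at this depth.

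Ifnar1 encodes the receptor chain that binds TYK2. Its level was 96.9, 97.6 and 87.1 CPM in the Young libraries, 114, 111 and 109.8 CPM in Aged and 96.3, 86.5 and 77.3 CPM in PDK4-IN. All Aged libraries lay above all others. It rose 1.18-fold with age (log2 0.24, SE 0.06, adjusted p = 0.0104), a call lost without Aged replicate 1 (log2 0.22, adjusted p = 0.057), and was 1.28-fold lower in PDK4-IN than in Aged (adjusted p = 0.00139). Ifnar2, the chain that binds JAK1, stood at 58.5, 52.2 and 61.0 CPM in Young, at 73.9, 77.0 and 81.5 CPM in Aged and at 69.4, 66.6 and 69.7 CPM in PDK4-IN. It was the only member whose PDK4-IN libraries lay between the other groups without touching either. Its rise with age was 1.34-fold (adjusted p = 0.00104). PDK4-IN was lower than Aged by 1.12-fold (adjusted p = 0.0339) and higher than Young by 1.17-fold (adjusted p = 0.0294). The fall was lost with DESeq2, with no low-count filter and with all 9 libraries in the fit (adjusted p = 0.0883, 0.0611 and 0.0677), and without Aged replicate 2, Aged replicate 3 or PDK4-IN replicate 2 (adjusted p = 0.0878, 0.158 and 0.135), and the PDK4-IN over Young call without any 1 of 8 libraries (adjusted p from 0.0504 to 0.162).

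Of the transcription factors, Stat2, Irf9 and Irf7 rose with age and Irf1 did not pass the test. Stat2, whose product carries the activation domain of the ISRE-binding complex, stood at 66.9, 61.0 and 54.6 CPM in Young, at 90.0, 92.5 and 90.2 CPM in Aged and at 66.2, 61.4 and 58.3 CPM in PDK4-IN. It rose 1.48-fold with age (log2 0.57, SE 0.07, adjusted p = 1.5e-04) and was 1.46-fold lower in PDK4-IN than in Aged (adjusted p = 1.8e-05). Irf9, the DNA-binding subunit of that complex, gave 28.9, 26.4 and 29.5 CPM in Young, 47.0, 46.3 and 48.5 CPM in Aged and 30.4, 32.7 and 29.0 CPM in PDK4-IN. Its rise was 1.66-fold (log2 0.73, SE 0.07, adjusted p = 1.1e-05). For both genes the Young and PDK4-IN libraries overlapped and the Aged libraries stood clear. The 95% interval of the PDK4-IN over Young log2 difference was -0.15 to 0.14 for Stat2 and -0.05 to 0.23 for Irf9.

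Irf7, which amplifies interferon production once induced, was counted at 22.3, 22.7 and 21.3 CPM in Young, at 38.2, 36.2 and 39.1 CPM in Aged and at 21.1, 20.6 and 20.4 CPM in PDK4-IN. It rose 1.70-fold with age (log2 0.76, SE 0.07, adjusted p = 8.2e-06) and was 1.82-fold lower in PDK4-IN than in Aged (adjusted p = 1.8e-06). All 3 PDK4-IN libraries lay just under the lowest Young library, a difference that was not called (log2 -0.12, adjusted p = 0.188). Irf1, a factor also induced by interferon gamma, differed in pattern. It stood at 33.1, 36.0 and 37.6 CPM in Young, at 36.4, 36.7 and 38.2 CPM in Aged and at 25.5, 29.6 and 28.5 CPM in PDK4-IN. Its Young and Aged libraries overlapped (log2 0.05, 95% interval -0.09 to 0.19), and PDK4-IN was lower than Aged by 1.32-fold (adjusted p = 0.0013) and than Young by 1.30-fold (adjusted p = 0.00433).

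All 4 sensors rose with age and fell in PDK4-IN below Aged. Eif2ak2 encodes PKR, which halts protein synthesis on binding double-stranded RNA, and stood at 117, 118 and 99.5 CPM in Young, 143, 146 and 144 CPM in Aged and 109.8, 93.0 and 87.0 CPM in PDK4-IN. It rose 1.29-fold (adjusted p = 0.00183) and was then 1.49-fold lower (adjusted p = 7.5e-05). Between PDK4-IN and Young it was not called (log2 -0.24, adjusted p = 0.0512), but 6 alternative settings called it lower, among them DESeq2 (adjusted p = 0.0328). Ifih1 encodes MDA5, a sensor of long double-stranded RNA, and stood at 28.7, 26.1 and 26.5 CPM in Young, 34.7, 37.5 and 38.1 CPM in Aged and 21.0, 18.3 and 21.6 CPM in PDK4-IN. Here all 3 groups were apart, with PDK4-IN lowest, 1.37-fold under Young (log2 -0.45, SE 0.08, adjusted p = 0.00205). Zbp1, a sensor of left-handed nucleic acid that can start necroptosis, gave 5.60, 5.94 and 5.60 CPM in Young, 14.4, 12.8 and 13.9 CPM in Aged and 3.73, 5.48 and 4.25 CPM in PDK4-IN. It rose 2.37-fold with age (log2 1.25, SE 0.10, adjusted p = 4.3e-06) and was 3.03-fold lower in PDK4-IN than in Aged. All PDK4-IN libraries of Zbp1 lay below all Young ones, a difference that was not called (log2 -0.38, adjusted p = 0.0713). It was called with the gene-length trend removed (adjusted p = 0.0364) and without PDK4-IN replicate 2 (adjusted p = 0.0169). Dhx58, whose product LGP2 modulates MDA5, had group means of 5.36, 11.2 and 5.30 CPM (SD 0.60, 0.95 and 0.35, n = 3 each) in Young, Aged and PDK4-IN.

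**Figure D3:**
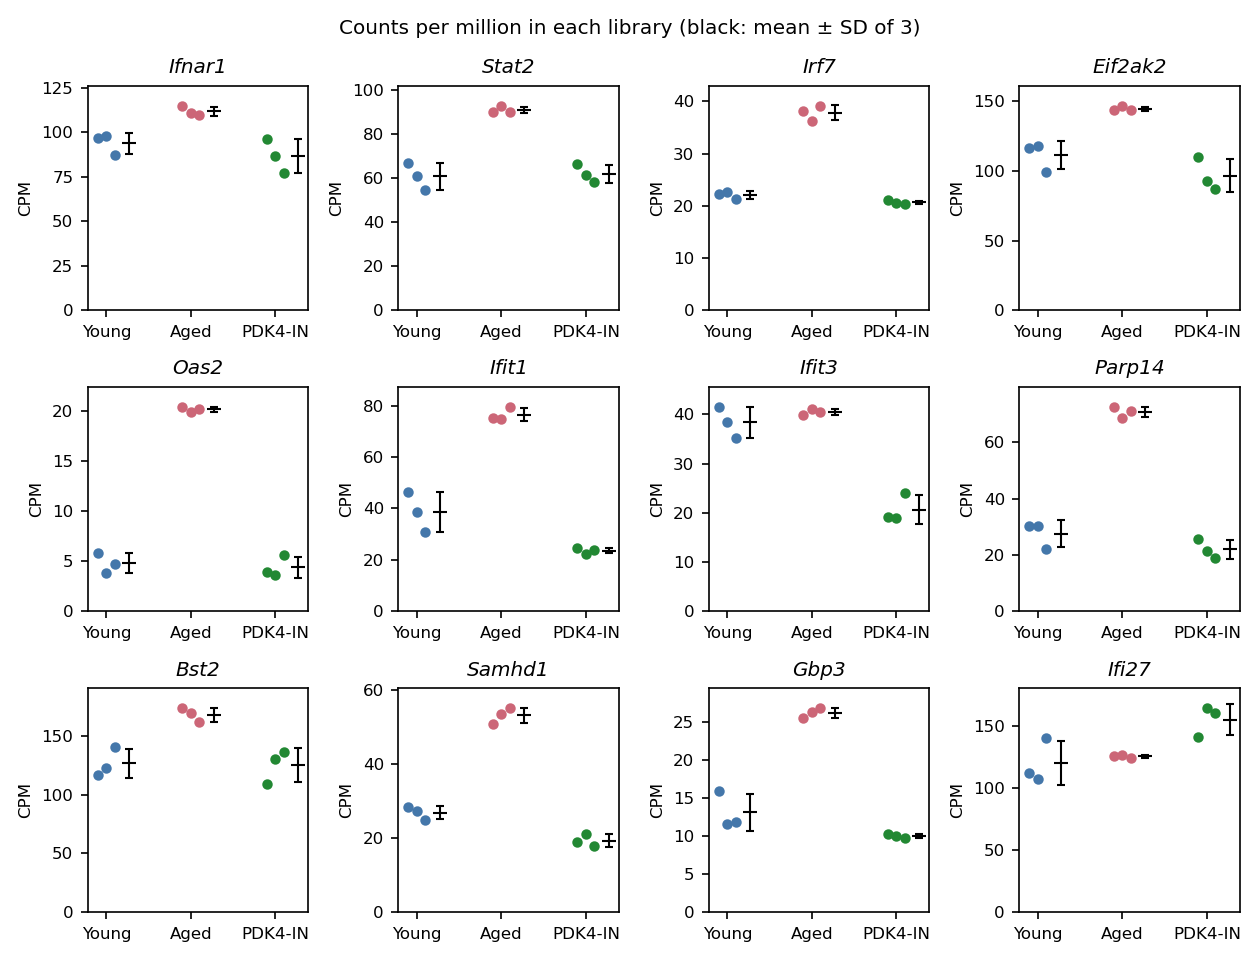
CPM of 12 members in each of the 9 libraries (coloured points), with the mean ± SD of 3 libraries in black. The Aged points lie above the Young points in 10 panels, while Ifit3 (39.9 to 41.1 CPM in Aged) and Ifi27 (124 to 126 CPM in Aged) lie within the spread of Young.

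The OAS family had the highest median log2 fold change with age of the role groups, 1.91. Its enzymes make short adenylate chains on binding double-stranded RNA, while the OAS-like proteins act in other ways. Oas2 stood at 5.80, 3.81 and 4.78 CPM in Young, at 20.4, 19.9 and 20.3 CPM in Aged and at 3.94, 3.62 and 5.63 CPM in PDK4-IN. It rose 4.18-fold (log2 2.06, SE 0.13, adjusted p = 4.7e-07) and was 4.55-fold lower in PDK4-IN than in Aged (adjusted p = 3.3e-07). Oas1a stood at 13.8, 12.1 and 13.6 CPM in Young, at 34.2, 26.5 and 33.8 CPM in Aged and at 12.5, 20.2 and 17.7 CPM in PDK4-IN. Its PDK4-IN libraries reached from the Young level to above it, so that the difference from Young was not called (log2 0.32, 95% interval 0.00 to 0.65, adjusted p = 0.158). Without PDK4-IN replicate 1 it was called higher than in Young (log2 0.48, adjusted p = 0.0125). The near-identical neighbour Oas1g had a fold change of 1.47 on the log2 scale with age, and reads of the pair could be divided between them in counting.

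Oasl2, which encodes an OAS-like protein with ubiquitin-like domains, stood at 18.0, 17.1 and 14.6 CPM in Young, at 34.8, 34.4 and 34.8 CPM in Aged and at 10.1, 11.7 and 10.5 CPM in PDK4-IN. It rose 2.08-fold with age (adjusted p = 3.6e-06) and was lower in PDK4-IN than in Young by 1.57-fold (log2 -0.65, SE 0.10, adjusted p = 4.4e-04), the only family member called there. Oas3 had the largest rise with age of all members, from 0.807 ± 0.362 CPM to 12.9 ± 0.448 CPM (SD, n = 3), and stood at 1.06 ± 0.0684 CPM in PDK4-IN. That was a 15.7-fold rise (log2 3.97, SE 0.21, adjusted p = 1.2e-07) and a 12.0-fold fall. Oasl1, which represses translation of Irf7, had means of 2.52, 9.55 and 2.38 CPM in the same order (SD 0.0087, 1.23 and 0.411, n = 3 each).

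Among the IFIT proteins, IFIT1 binds foreign RNA ends and blocks translation, and the 3 genes lie side by side on chromosome 19. Ifit1 stood at 46.5, 38.8 and 31.0 CPM in Young, at 75.2, 74.6 and 79.3 CPM in Aged and at 24.6, 22.4 and 23.9 CPM in PDK4-IN. It rose 1.95-fold with age (log2 0.96, SE 0.12, adjusted p = 8.6e-05) and in PDK4-IN was lower than in Aged by 3.21-fold (adjusted p = 2.5e-09) and than in Young by 1.68-fold (adjusted p = 6.7e-04). Ifit2 stood at 32.9, 33.7 and 30.6 CPM in Young, at 47.3, 46.8 and 48.3 CPM in Aged and at 33.7, 32.1 and 26.9 CPM in PDK4-IN. Its Young and PDK4-IN libraries overlapped, and Aged was 1.45-fold above Young (adjusted p = 7.2e-05).

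Ifit3 went another way: 41.4, 38.5 and 35.3 CPM in Young, 39.9, 41.1 and 40.5 CPM in Aged and 19.1, 19.0 and 24.0 CPM in PDK4-IN. Young and Aged overlapped (log2 0.06, 95% interval -0.08 to 0.20, adjusted p = 0.508), whereas PDK4-IN was 1.94-fold below Aged (log2 -0.96, SE 0.10, adjusted p = 1.3e-05) and 1.89-fold below Young (log2 -0.92, SE 0.10, adjusted p = 3.9e-05). This was the largest fall below Young among the 42 tested members. Ifit3b, a near-identical copy next to it that could take part of its reads, showed log2 changes of 0.30 (adjusted p = 0.073), -1.02 (adjusted p = 4.8e-05) and -0.74 (adjusted p = 0.00241) in the 3 comparisons.

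All 8 members of the ISG15, ubiquitin ligase and PARP group rose with age and fell below Aged in PDK4-IN. Trim25, the ubiquitin ligase that acts on the RNA sensor RIG-I, stood at 82.7, 75.4 and 63.2 CPM in Young, at 139, 129 and 129 CPM in Aged and at 85.7, 76.0 and 71.7 CPM in PDK4-IN. It rose 1.78-fold (adjusted p = 3.1e-05) and fell back 1.70-fold, to a level overlapping Young. Parp14, a mono-ADP-ribosyl transferase, gave 30.5, 30.2 and 22.3 CPM in Young, 72.5, 68.8 and 71.3 CPM in Aged and 25.6, 21.6 and 18.9 CPM in PDK4-IN. Its rise of 2.54-fold (log2 1.34, SE 0.10, adjusted p = 2.7e-06) was the largest of the group. Parp9, which works as a dimer with the ubiquitin ligase Dtx3l, stood at 32.7, 36.4 and 33.0 CPM in Young, at 49.0, 44.3 and 48.2 CPM in Aged and at 29.5, 29.0 and 30.2 CPM in PDK4-IN. It rose 1.37-fold and was 1.59-fold lower in PDK4-IN than in Aged.

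Isg15 itself, the ubiquitin-like protein that is joined to other proteins during the response, had means of 22.2 ± 1.40, 39.9 ± 1.90 and 21.9 ± 2.01 CPM (SD, n = 3) in Young, Aged and PDK4-IN. Aged was 1.78-fold above Young (log2 0.83, SE 0.07, adjusted p = 8.1e-06), and PDK4-IN differed from Young by a log2 of -0.05 (95% interval -0.23 to 0.12), or -0.25 with the gene-length trend removed, where it was called lower (adjusted p = 0.0112). Usp18, which removes ISG15 and also damps signalling at IFNAR2, rose 2.05-fold and was 2.22-fold lower in PDK4-IN than in Aged. Herc6, the mouse ligase that attaches ISG15, and the ligase Dtx3l rose 1.68-fold and 1.54-fold. Trim30a, of a family of near-identical neighbouring genes, rose 2.40-fold and was 3.83-fold lower in PDK4-IN than in Aged. In PDK4-IN against Young, 5 of the 8 were lower (15.7% of all genes): Trim30a by 1.62-fold, Herc6 by 1.35-fold, Dtx3l by 1.34-fold, Parp14 by 1.28-fold and Parp9 by 1.18-fold.

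Among the 8 antiviral effectors, 7 rose with age and Isg20 did not pass the test. Bst2, whose product tetherin holds budding virus on the cell surface, was the most abundant member per length, with a mean TPM, the share per length scaled to the library, of 364 over the 9 libraries. Its level was 116, 122 and 141 CPM in Young, 173, 169 and 161 CPM in Aged and 109.1, 131 and 136 CPM in PDK4-IN. It rose 1.32-fold (adjusted p = 0.00159) and PDK4-IN overlapped Young, but with the gene-length trend removed PDK4-IN was called lower than Young (log2 -0.23, adjusted p = 0.00243). Samhd1, which depletes the nucleotides that viruses copy their DNA from, stood at 28.3, 27.4 and 25.0 CPM in Young, at 50.8, 53.5 and 55.0 CPM in Aged and at 18.9, 21.2 and 17.9 CPM in PDK4-IN. All 3 groups were apart, and PDK4-IN was 1.42-fold below Young (log2 -0.51, SE 0.08, adjusted p = 8.1e-04), the only effector called lower there. Rtp4, which restrains replication of flaviviruses, gave 12.5, 12.5 and 13.9 CPM in Young, 39.5, 35.4 and 34.1 CPM in Aged and 13.0, 14.3 and 13.0 CPM in PDK4-IN. Its rise was 2.78-fold (log2 1.48, SE 0.09, adjusted p = 2.5e-07), and Young and PDK4-IN overlapped.

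Rsad2, which encodes viperin, an enzyme that makes a chain-terminating nucleotide, had the largest fall of all members in PDK4-IN against Aged. Its means were 1.82 ± 0.910 CPM in Young, 17.1 ± 1.07 CPM in Aged and 1.29 ± 0.268 CPM in PDK4-IN (SD, n = 3). The rise was 9.22-fold (log2 3.20, SE 0.24, adjusted p = 2.2e-06) and the fall 13.1-fold (log2 -3.72, SE 0.15, adjusted p = 4.7e-09). Young replicate 3 held 0.771 CPM where the other Young libraries held 2.27 and 2.41 CPM, and without it PDK4-IN was called lower than Young (log2 -0.90, adjusted p = 0.0049). Cmpk2, the neighbouring gene, which encodes a mitochondrial nucleotide kinase, had means of 2.38, 10.7 and 1.90 CPM and rose 4.43-fold. Mx1 and Mx2 encode dynamin-like proteins that trap viral particles, and both carry inactivating changes in C57BL/6 mice. Mx1 had 2 to 60 counts per library and rose 4.22-fold (log2 2.08, SE 0.41, adjusted p = 0.00244), and Mx2 rose 2.07-fold (adjusted p = 3.8e-04). Isg20, an RNA exonuclease, had means of 3.27, 4.25 and 3.45 CPM, and its log2 difference between Aged and Young was 0.37 with a 95% interval of 0.05 to 0.68 before adjustment (adjusted p = 0.0926).

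**Figure D4:**
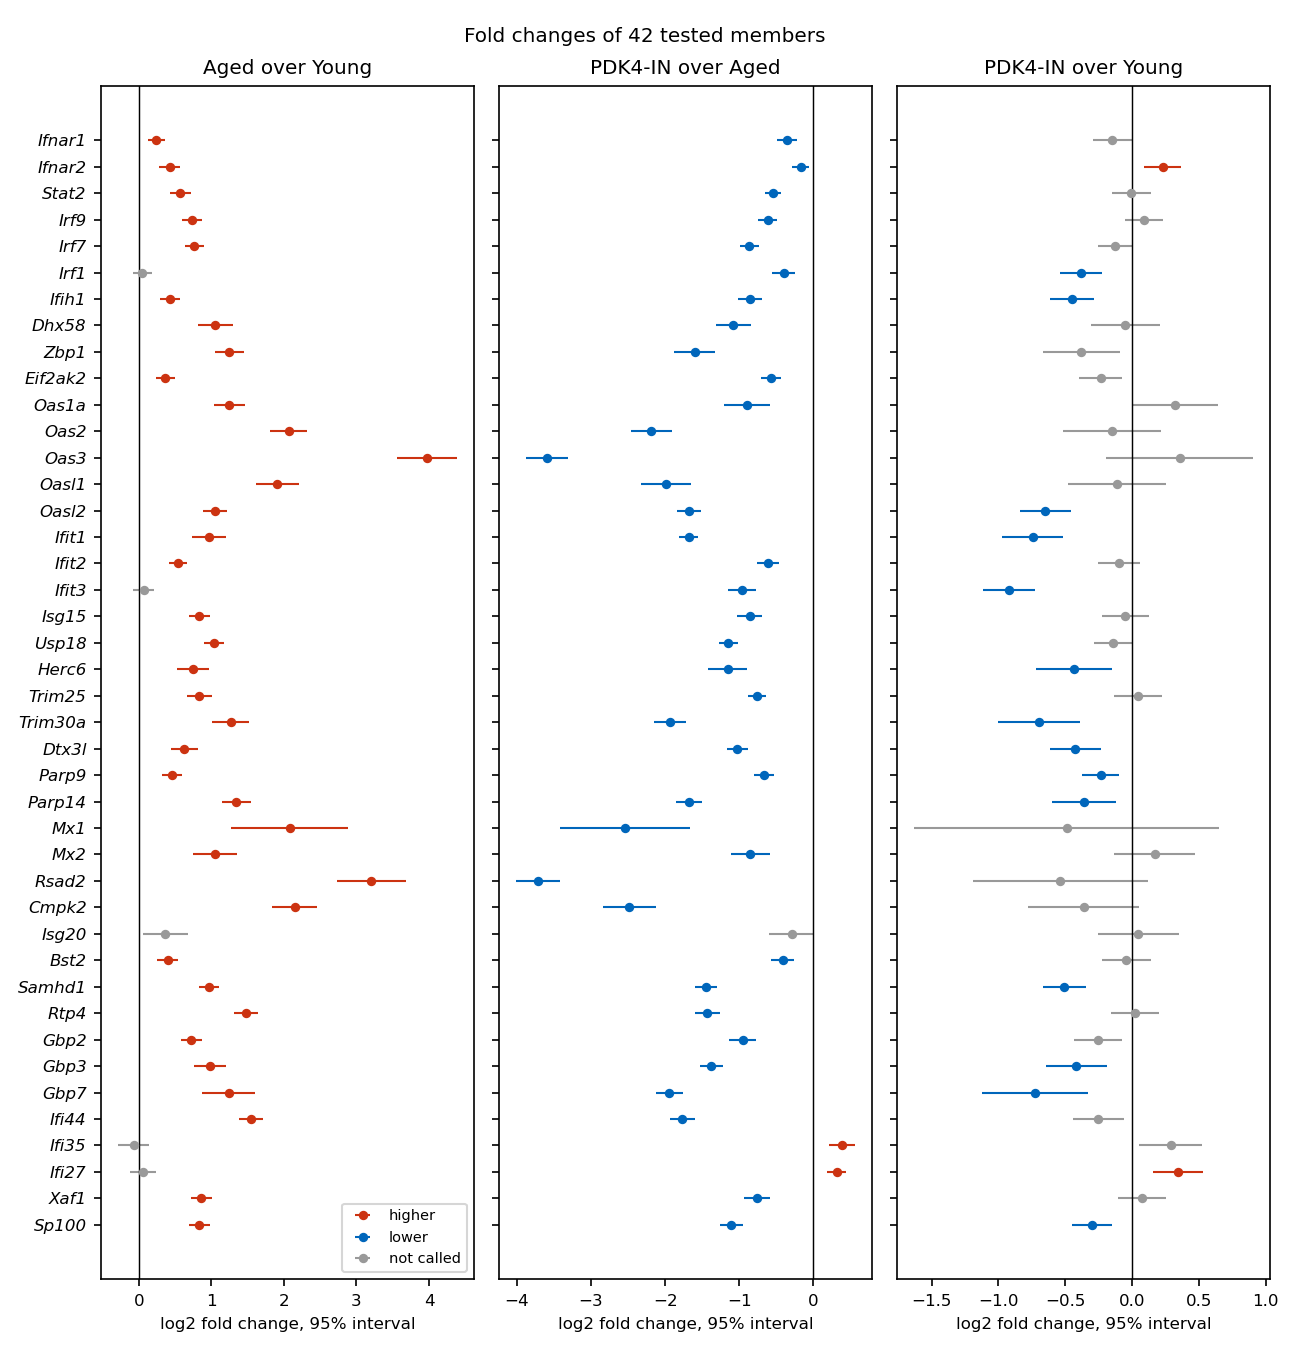
Log2 fold change with its 95% interval for the 42 tested members in each comparison, ordered by role and coloured by call, each panel with its own axis range. Most points lie to the right of 0 for Aged over Young, up to 3.97 (Oas3), to the left for PDK4-IN over Aged down to -3.72 (Rsad2) except Ifi35 and Ifi27, and on both sides within 1 of 0 for PDK4-IN over Young.

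The guanylate-binding proteins coat and break open the compartments of intracellular microbes and respond to interferon gamma as well. Gbp2 stood at 14.3, 13.8 and 14.4 CPM in Young, at 24.6, 22.9 and 23.2 CPM in Aged and at 13.3, 12.7 and 10.5 CPM in PDK4-IN. Gbp3 stood at 16.0, 11.7 and 11.9 CPM in Young, at 25.5, 26.4 and 26.8 CPM in Aged and at 10.3, 10.1 and 9.79 CPM in PDK4-IN. Gbp7 stood at 14.3, 13.8 and 7.25 CPM in Young, at 26.6, 28.9 and 28.9 CPM in Aged and at 8.03, 6.68 and 7.12 CPM in PDK4-IN. For each gene the Aged libraries were the highest, and the Young spread of Gbp7 came from replicate 3. They rose 1.65-fold (adjusted p = 2.7e-05), 1.98-fold (adjusted p = 6.0e-05) and 2.36-fold (adjusted p = 4.3e-04), in that order. PDK4-IN was lower than Aged by 1.93-fold, 2.59-fold and 3.84-fold, and the genes lie in 1 cluster of similar sequences on chromosome 3, so their counts could be partly shared. Against Young, Gbp3 (1.34-fold, adjusted p = 0.0193) and Gbp7 (1.66-fold, adjusted p = 0.0187) were called lower in PDK4-IN, and Gbp2 was not (adjusted p = 0.0588).

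The remaining induced genes split. Ifi27, which encodes a small mitochondrial membrane protein, stood at 112, 107 and 140.1 CPM in Young, at 126, 126 and 124 CPM in Aged and at 141, 164 and 160.4 CPM in PDK4-IN. Young replicate 3 was close to the lowest PDK4-IN library and the other Young libraries were below all Aged ones. It was not called with age (log2 0.05, 95% interval -0.12 to 0.23), was called without Young replicate 3 (log2 0.18, adjusted p = 0.00118), and was 1.24-fold higher in PDK4-IN than in Aged (adjusted p = 0.00216). Ifi35, whose product pairs with NMI, stood at 32.9, 32.5 and 43.8 CPM in Young, at 35.8, 34.1 and 34.6 CPM in Aged and at 39.7, 45.9 and 50.3 CPM in PDK4-IN. Again Young replicate 3 was the high library of its group. PDK4-IN was 1.31-fold above Aged (log2 0.39, SE 0.09, adjusted p = 0.00374). Against Young the values were 1.27-fold for Ifi27 (adjusted p = 0.02) and 1.22-fold for Ifi35 (adjusted p = 0.0902). Ifi35 was called higher than in Young without Young replicate 3 or PDK4-IN replicate 1 (log2 0.43 and 0.36, adjusted p = 0.00323 and 0.0327). With the gene-length trend removed the difference from Aged was not called for Ifi27 (log2 0.11, adjusted p = 0.0516), while Ifi35 was still called higher than in Aged.

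Sp100, a component of nuclear bodies with many near-copies in the mouse genome, stood at 14.8, 15.0 and 15.9 CPM in Young, at 26.3, 27.5 and 28.4 CPM in Aged and at 12.5, 13.1 and 12.4 CPM in PDK4-IN. The groups were apart throughout, with a 1.78-fold rise (adjusted p = 8.6e-06) and a level in PDK4-IN 1.23-fold below Young (adjusted p = 0.0139). Ifi44, a cytoplasmic protein induced by interferon alpha, rose 2.92-fold and was 3.42-fold lower in PDK4-IN than in Aged. Xaf1, a pro-apoptotic partner of XIAP, rose 1.82-fold and was 1.70-fold lower, and neither was called between PDK4-IN and Young.

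Read as a set of calls, 24 members rose with age, fell in PDK4-IN and were not called against Young, and 12 did the same and were also called below Young: Ifit1, Oasl2, Ifih1, Parp9, Parp14, Dtx3l, Trim30a, Gbp3, Gbp7, Samhd1, Herc6 and Sp100. Ifit3 and Irf1 fell below both groups without rising with age. The share of all genes with any of these call patterns was not counted, and the comparisons share libraries. Of the 37 members called higher with age, 28 had a PDK4-IN mean under the Young mean, and the share of all genes with that order was not counted. The calls against Young were the least settled. Leaving out 1 library at a time gave 10 to 17 members lower and 0 to 3 higher. Over all genes tested, 3101 to 6177 were then called in either direction. Parp14, Herc6, Gbp7, Gbp3 and Parp9 lost the call without at least 1 of Young replicate 1, Young replicate 2, PDK4-IN replicate 2 or PDK4-IN replicate 3, with adjusted p from 0.0508 to 0.161. Parp14 was also lost without any single Aged library (adjusted p from 0.063 to 0.0643) and Herc6 without Aged replicate 2 or 3 (adjusted p = 0.0513 and 0.0593). Ifi27 lost its call without Young replicate 1 or 2 or PDK4-IN replicate 2 or 3, with adjusted p from 0.0706 to 0.0989.

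Members with and without an ISRE core in the promoter were also counted apart. With age, 13 of the 14 with a core and 15 of the 18 tested without were higher (21.4% of all genes). In PDK4-IN against Aged, 14 of 14 and 16 of 18 were lower (25.7% of all genes), and against Young 6 of 14 and 6 of 18 (15.7% of all genes). In both of these comparisons 1 of the 18 without a core was higher. The median log2 fold change with age was 0.90 with and 0.76 without a core, and no test was made of the difference.

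A further 155 genes of interferon sensing, signalling and response were found beyond the members. Of the 122 tested, 81 were higher and 5 lower in Aged than in Young (21.4% and 19.0% of all genes), with a median log2 fold change of 0.49, and 3 were higher and 87 lower in PDK4-IN than in Aged (23.9% and 25.7% of all genes), with a median of -0.68. Against Young, 21 of 124 (16.9%) were higher and 24 (19.4%) lower in PDK4-IN, near the 13.3% and 15.7% of all genes. By list, 43 of 59 further induced genes, 16 of 25 genes of sensing and induction, 11 of 14 genes of the type II response and 7 of 12 genes of receptor signalling rose with age, while of 10 genes that clear the cell's own nucleic acid 3 rose (30%, near the 21.4% of all genes) and 1 fell.

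Of the receptor's kinases, Tyk2 rose with age (log2 0.37, SE 0.07, adjusted p = 0.00145) and fell in PDK4-IN (log2 -0.36, adjusted p = 0.0015), while Jak1 gave 375, 348 and 320 CPM in Young against 339, 346 and 341 CPM in Aged and was not called (log2 -0.04).

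Several of the genes with the lowest p with age are known from leukocytes. Irf8, a transcription factor of myeloid cells, stood at 0.10 to 0.30 CPM in Young, at 16.4 to 17.4 CPM in Aged and at 0.40 to 0.77 CPM in PDK4-IN. Tlr7, a receptor for single-stranded RNA, stood at 0.10 to 0.28, 15.2 to 15.6 and 0.50 to 0.59 CPM in the same order. Ptpn6, a phosphatase that damps JAK signalling in blood cells, followed with 0.70 to 1.26, 43.1 to 46.1 and 1.63 to 2.56 CPM. These levels moved with the macrophage markers, whose part in them was not tested. Cd274, which encodes PD-L1, gave 5.35 to 6.17 CPM in Young, 65.1 to 66.8 CPM in Aged and 3.62 to 5.06 CPM in PDK4-IN. Slfn2, a growth regulator of T cells, gave 20.0 to 24.7, 77.7 to 85.1 and 33.4 to 38.5 CPM, and Socs3, a feedback inhibitor of cytokine signalling, gave 25.2 to 27.4, 70.0 to 71.3 and 29.1 to 32.9 CPM. In each of these 6 genes the Aged libraries lay clear of both other groups.

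Adar, which edits double-stranded RNA so that sensors ignore it, rose with age by a log2 change of 0.56 (SE 0.07, adjusted p = 7.3e-05) and fell by 0.55 in PDK4-IN. Gbp5 and Gbp9 of the type II list rose by 1.87 and 0.76. Il10rb, the shared receptor chain of type III interferon and interleukin-10, rose by 0.88 (adjusted p = 8.1e-07), whereas Ifnlr1, the chain specific to type III interferon, stood at 0.29 to 0.89 CPM over the 9 libraries and was not called (adjusted p = 0.349).

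**Figure D5:**
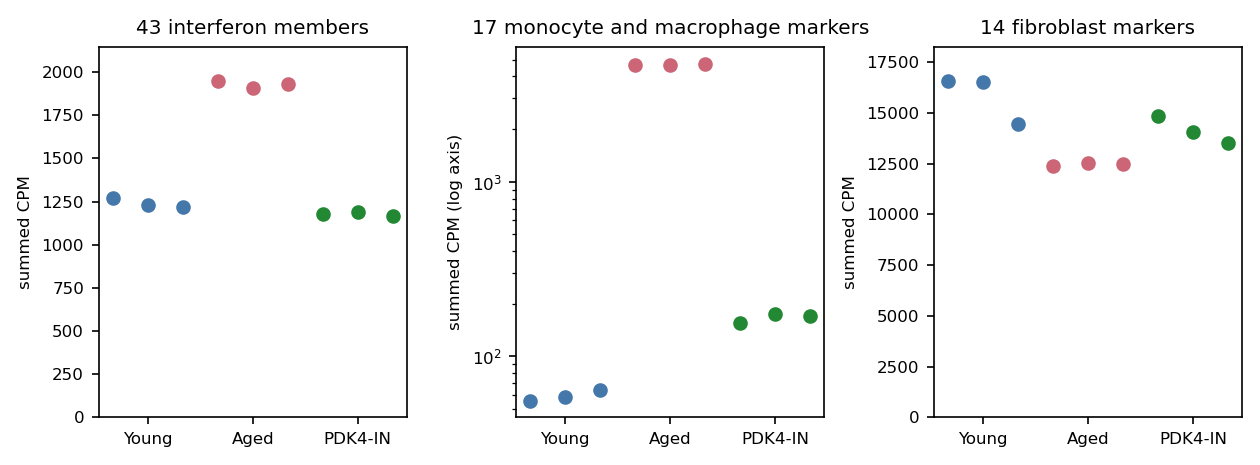
Summed CPM in each of the 9 libraries of the 43 members (left), of 17 monocyte and macrophage markers (middle, log axis) and of 14 fibroblast markers (right). The member sum is 1910 to 1951 CPM in Aged and 1168 to 1272 CPM in the other 6 libraries, the macrophage sum 4662 to 4726 CPM in Aged and 55.8 to 175 CPM elsewhere, and the fibroblast sum is lowest in Aged.

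Alveolar macrophage markers summed to 15.8 to 21.5 CPM in Young, 381 to 393 CPM in Aged and 44.3 to 46.9 CPM in PDK4-IN, with Ear1 at 0 throughout. Marco made up 328 to 339 CPM of the Aged sum and 4.92 to 6.97 CPM of that in PDK4-IN. Fabp4 gave most of the other sums and was highest in PDK4-IN, at 11.5 to 16.3, 28.2 to 30.2 and 32.9 to 35.8 CPM in Young, Aged and PDK4-IN. Plasmacytoid dendritic cells are the main source of type I interferon in blood, and their 11 markers summed to 61.7 to 71.5, 65.6 to 70.8 and 38.1 to 54.1 CPM, with Siglech and Klk1 at 0 in Young. Nearly all of that sum was Tcf4, at 59.4 to 69.1, 61.7 to 66.1 and 35.4 to 51.1 CPM, and Bcl11a was the only other marker with a group mean of 1 CPM or more. Neutrophil markers summed to 10.6 to 12.3, 142 to 148 and 62.7 to 81.5 CPM, of which Mmp8 made up 93.7 to 98.4 CPM in Aged and 1.46 to 2.27 CPM in PDK4-IN, and S100a8 34.4 to 41.6 and 58.0 to 74.1 CPM. T and NK cell markers summed to at most 2.47 CPM and B cell markers to at most 7.13 CPM in any library. Whether the members were read from fibroblasts or from other captured cells was not measured.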

How the data were processed

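The 9 libraries (150-base paired reads of TruSeq libraries from microdissected cells) were deposited as 2 tables that pair Young with Aged and Aged with Aged_PDK4IN, and both hold the same Aged columns. The submitters' notes name Bowtie 0.12.2 and the mouse build GRCm39 (mm39), and the quantifier, annotation and strandedness are not given in the sources used here for these libraries. Per the file headers and values, the deposited expected counts are estimated counts per gene, not normalized and not always whole, and they were rounded here. The deposited TPM values were scaled by the authors to gene length and library total and were used only to compare levels between genes, with the deposited gene length, another unit, beside them. The worksheets carry names of another experiment (bleomycin, PCC1), so libraries were assigned by the column names, which match the titles. Columns with the authors' own fold changes, p-values, calls and group means were not used.

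Genes were kept by filterByExpr and scaled by TMM, and edgeR 4.0.16 (R 4.3.3) was fitted to the 6 libraries of each deposited pair, and to all 9 for PDK4-IN against Young, with p-values adjusted over all genes tested. Fold changes and standard errors are from these fits, and 95% intervals are normal intervals from those errors, unadjusted. Levels are CPM over the library total without TMM. Leaving out each library in turn, RLE size factors, library totals, DESeq2 1.42.0, other filters, other libraries in the fit, a replicate block and an offset for gene length were the alternatives. Values per library were printed for Ifnb1, both receptor chains, Stat2, Irf9, Irf7, the 3 members of each role with the highest mean CPM and any member called against the majority. Of other pathway genes, Jak1, Tyk2 and the 2 of each list with the lowest p with age were named, apart from some items that are not reported here, and Oas1g and Ifit3b were added after their values were seen. The members and all lists were chosen with earlier results of these data known. A floor of 3 counts corresponds to 0.113 to 0.154 CPM per library. Analyses used limma 3.58.1 and Python 3.11.15.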

Additional observations from a re-analysis of the deposited data

How the results depend on the processing

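Over 126 fold changes of members and 1888 alternative values, 1810 kept their direction and side of the threshold, 54 lost and 24 gained the call, and 0 reversed. With age, 37 members were called higher, and 36 to 38 when 1 library was left out. In PDK4-IN against Aged, 39 were lower (38 to 39 with 1 library left out, 40 with the gene-length trend removed, where Isg20 was gained with adjusted p = 0.0301) and 2 higher, or 1 with the gene-length trend removed. In PDK4-IN against Young, 14 were lower (10 to 17 with 1 library left out), or 8 with only the 6 libraries compared and 18 with the gene-length trend removed, and 2 were higher (0 to 3 with 1 library left out), or 4 with no low-count filter and 0 with only the 6 libraries compared. The fit with only the 6 libraries called 3255 of 15541 genes in either direction, against 4796 of 16553 with all 9. With the gene-length trend removed 5188 of 16553 were called. The fit of 6 had fewer samples to estimate the spread and left out the Aged libraries, which varied less. Over members with a mean of at least 1 CPM, the median SD as a share of the mean was 3.94% in Aged, 8.35% in Young and 8.63% in PDK4-IN. The cause of the changes in calls was not tested.

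With a replicate block the counts were 37 higher with age, 39 lower and 2 higher in PDK4-IN against Aged, and 15 lower and 3 higher in PDK4-IN against Young. Same-numbered libraries did not deviate together (correlations from -0.04 to 0.182), so the numbers were not taken to pair the samples. Mx1, at 2 to 60 counts, gave no value for PDK4-IN against Young under the filter of 1 CPM or with only the 6 libraries.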
